A study of Mus musculus with 9 samples.

Results

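The ADAMTS proteases and their TIMP inhibitors were followed across 9 expression arrays of NIH-CAR cells. All probe sets whose platform annotation named one of 10 listed genes were taken. They numbered 24 of the 34945 probe sets with a single gene symbol and stood for 9 of 18193 genes: Adamts1, Adamts4, Adamts5, Adamts7, Adamts9, Adamts12, Timp1, Timp2 and Timp3. No probe set carried the symbol of the remaining listed gene, Adamts2, whose expression was not analysed here. Adamts4 was singled out from its relatives because its differences between groups in these data were already known. Its values, errors and place among the calls are therefore a description of that choice and not evidence for it.

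NIH-CAR cells are 1 clonal line of NIH-3T3 mouse fibroblasts, at passage 12, that stably expresses the adenovirus receptor variant CARΔ1. All 3 groups of 3 arrays each received an adenovirus for 2 h. A/B-deleted cells received the virus for HA-tagged PPARg without its A/B-domain (HA-PPARgCDE) and then 1 µM rosiglitazone. Full-length cells received the virus for HA-tagged PPARg2 and then 1 µM rosiglitazone, and empty-vector cells received the virus with no insert (AdEmpty) and then the vehicle DMSO. Receptor and agonist differ together from empty vector, so the share of either cannot be told apart in those comparisons. Levels are log2 expression values, differences are on the log2 scale, and adjusted p-values come from limma over all 18193 genes.

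ADAMTS enzymes are secreted zinc metalloproteinases that cut components of the extracellular matrix. ADAMTS1, ADAMTS4, ADAMTS5 and ADAMTS9 cleave large hyaluronan-binding proteoglycans such as aggrecan and versican, and ADAMTS4 and ADAMTS5 are the best known aggrecanases of cartilage. ADAMTS7 and ADAMTS12 cleave cartilage oligomeric matrix protein. TIMPs are small inhibitors that block matrix metalloproteinases, and TIMP3 also inhibits ADAMTS4 and ADAMTS5. PPARγ is a nuclear receptor that binds DNA together with RXR, activates genes of fat storage and restrains inflammatory genes. The A/B-domain lies at its N-terminus and carries an activation function that needs no ligand.

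All 8 fibroblast markers, among them Vim and Col1a1, averaged between 10.59 and 14.12, above every array median (6.68 to 6.90). None of the 4 leukocyte and 5 endothelial markers averaged above the highest of those medians. Of 6 chondrocyte markers 3 did, with Sox9 the highest at 10.63, and of 5 epithelial markers 2 did, with Epcam the highest at 8.28. Of 5 adipocyte markers Fabp4 and Cidec were called higher in full-length cells than with empty vector (log2 differences of 7.605 and 2.51), and Fabp4 also in A/B-deleted cells (6.54). The summed level of these 5 was 11.20 to 13.20 in A/B-deleted cells, 13.18 to 13.69 in full-length cells and 7.95 to 8.48 in empty-vector cells, and its part in the Adamts4 differences was not tested. Fabp4 makes up most of that sum in the cells with a receptor, while in empty-vector cells Retn (7.13) averaged above Fabp4 (5.82). Full-length minus empty vector was 0.22 for Adipoq, 0.10 for Retn and -0.21 for Lep. Pparg, the gene of the receptor, averaged 11.34 ± 0.63 in A/B-deleted cells, 11.25 ± 0.84 in full-length cells and 7.06 ± 0.10 in empty-vector cells (SD, n = 3 each). The arrays numbered 3 in each group stood apart from the others. Their 18S ribosomal RNA control probe sets averaged 7.59 to 8.67, against 10.51 to 12.44 on the other 6 arrays. The table holds no detection calls, and the small number of arrays limits the precision.

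Adamts4 was high with the full-length receptor and lay close to the empty-vector level with the A/B-deleted receptor. Probe set 1452595_at, the brighter of its 2 probe sets, read 6.83, 6.73 and 6.84 in A/B-deleted cells, 7.69, 7.74 and 7.84 in full-length cells and 6.53, 6.62 and 6.48 in empty-vector cells. The full-length arrays lay above all others by a wide margin, the A/B-deleted arrays lay just above the empty-vector arrays, and no groups overlapped. The group averages were 6.80 ± 0.06, 7.76 ± 0.08 and 6.54 ± 0.07 (SD, n = 3 each) in that order.

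The difference for Adamts4 was 1.21 (SE 0.10) for full-length cells minus empty vector, a 2.32-fold higher level. It was 0.25 (SE 0.10) for A/B-deleted cells minus empty vector, with both groups within or below the range of the array medians. A/B-deleted cells minus full-length cells gave -0.96 (95% interval -1.19 to -0.73, adjusted p = 0.08 in limma), which did not pass 0.05. With 1 array left out the adjusted p in limma ran from 0.171 to 0.773. By size this last difference ranked 18 of 18193 genes. Within replicate numbers 1, 2 and 3 it was -0.86, -1.01 and -1.004, so the arrays numbered 3 gave a value like that of the others. Pparg, in the same comparison, differed by 0.09 (95% interval -0.83 to 1.01).

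The second probe set of Adamts4, 1455965_at, gave smaller differences. It read 5.91, 5.95 and 5.75 in A/B-deleted cells, 6.27, 6.37 and 6.69 in full-length cells and 6.09, 5.86 and 5.72 in empty-vector cells. All 3 full-length arrays again lay above the other 6, while the A/B-deleted and empty-vector arrays overlapped. The difference was 0.55 (SE 0.15, adjusted p = 0.264 in a limma fit over all single-gene probe sets) for full-length minus empty vector. It was -0.02 (SE 0.15) for A/B-deleted minus empty vector and -0.58 (SE 0.15) for A/B-deleted minus full-length cells. None of these differences passed the test in that fit. There 1452595_at was the only Adamts4 probe set called for full-length minus empty vector (adjusted p = 0.00144). In A/B-deleted and empty-vector cells both probe sets lay within or below the range of the array medians. On the second probe set, 1455965_at, the full-length arrays also lay within or below that range. At such levels signal and background cannot be told apart without detection calls.

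**Figure D1:**
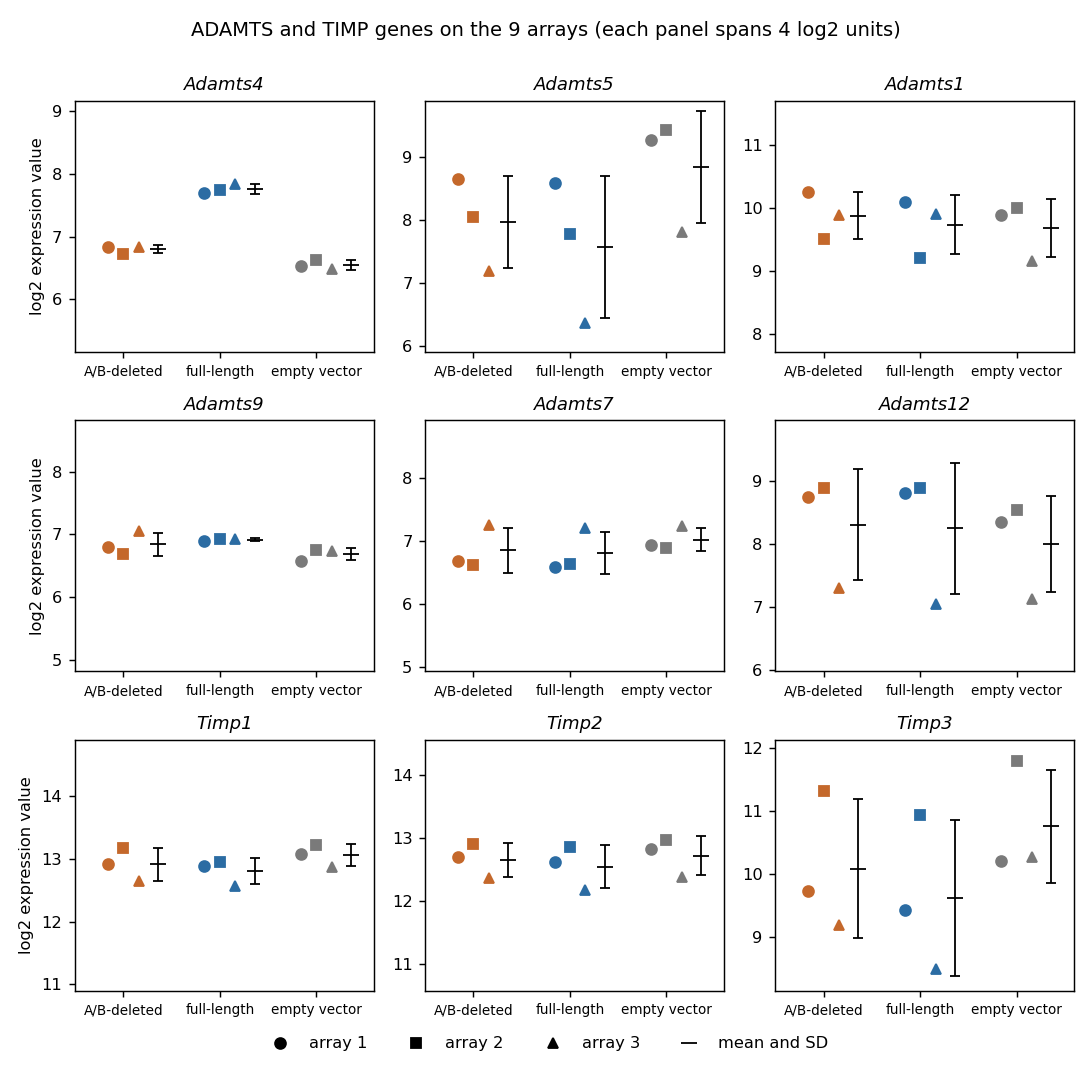
Log2 expression value (vertical axis) of the 9 genes by group (horizontal axis), 1 panel per gene with the brightest probe set of each, 3 arrays per group marked by replicate number, and the mean with its SD beside them. For Adamts4 the full-length arrays (7.69 to 7.84) sit above the A/B-deleted arrays (6.73 to 6.84) and the empty-vector arrays (6.48 to 6.62), while Adamts5, Adamts12 and Timp3 spread by replicate number within every group.

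Across the fit, 1 of the 9 genes passed an adjusted p of 0.05 for full-length cells against empty vector, and it was Adamts4. Of all genes 0.654% passed there. Nothing is read from this count or from the counts that follow, because Adamts4 was chosen with its values known. For A/B-deleted cells against empty vector limma called 0 of the 9 (0.17% of all genes). For A/B-deleted against full-length cells it called 0 of the 9 (0% of all genes). At an unadjusted p of 0.05, 1 of the 9 passed in each comparison, Adamts4 each time. Of all genes 3.79% did so for A/B-deleted against empty vector, 6.19% for full-length against empty vector and 1.52% for A/B-deleted against full-length cells. Groups did not overlap in 1 of the 9 genes for A/B-deleted against empty vector (7.89% of all genes), in 2 of the 9 for full-length against empty vector (9.38%) and in 1 of the 9 for A/B-deleted against full-length cells (5.17%). The median difference over the 9 genes was -0.07 for A/B-deleted minus empty vector (-0.03 over all genes), -0.18 for full-length minus empty vector (0.00 over all genes) and 0.10 for A/B-deleted minus full-length cells (-0.01 over all genes).

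Adamts5, the other main aggrecanase, had its highest group mean with empty vector, where Adamts4 had its lowest. It read 8.65, 8.05 and 7.19 in A/B-deleted cells, 8.59, 7.77 and 6.36 in full-length cells and 9.28, 9.43 and 7.82 in empty-vector cells. The arrays numbered 3 were the lowest of each group, and all groups overlapped. The difference was -0.88 (SE 0.62, adjusted p = 1.00) for A/B-deleted minus empty vector and -1.27 (SE 0.62, adjusted p = 0.897) for full-length minus empty vector, so neither passed the test in limma. Leaving out 1 array moved them between -1.39 and -0.49 and between -1.78 and -0.66. A/B-deleted minus full-length cells gave 0.39 (95% interval -0.99 to 1.78).

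Compared array by array within a replicate number, Adamts5 was lower with either receptor in every case. A/B-deleted minus empty vector was -0.63, -1.38 and -0.62 for numbers 1, 2 and 3, and full-length minus empty vector was -0.70, -1.66 and -1.46. Both sets of differences share the empty-vector arrays, and full-length and empty-vector arrays were not treated as pairs. The share of all genes with such a run of 1 sign was not counted. Without the 3 arrays numbered 3 the differences were -1.004 (SE 0.29, adjusted p = 0.382 in limma) and -1.18 (SE 0.29, adjusted p = 0.184 in limma). Of the 4 Adamts5 probe sets 1422561_at, 1456404_at and 1450658_at gave -0.75 to -1.27 for full-length minus empty vector. The dimmest, 1456969_at, gave 0.09 and was the only 1 of the 4 with a positive value there.

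Adamts1, an inflammation-inducible family member, read 10.26, 9.503 and 9.89 in A/B-deleted cells, 10.10, 9.21 and 9.90 in full-length cells and 9.89, 10.00 and 9.15 in empty-vector cells. The groups overlapped throughout. Its differences were 0.20 (95% interval -0.47 to 0.88) for A/B-deleted minus empty vector and 0.06 (-0.62 to 0.73) for full-length minus empty vector. Without the arrays numbered 3 both signs turned, to -0.06 and -0.29.

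Adamts9 cleaves versican and aggrecan. Probe set 1437785_at read 6.79, 6.68 and 7.05 in A/B-deleted cells, 6.90, 6.93 and 6.92 in full-length cells and 6.58, 6.74 and 6.73 in empty-vector cells. Its full-length arrays lay above its empty-vector arrays. The difference of 0.23 (SE 0.12, adjusted p = 0.968 in limma) did not pass the test. The other 2 probe sets of Adamts9 gave 0.06 and 0.04 in that comparison.

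Adamts7 and Adamts12 form a structurally related pair, and the arrays numbered 3 stood apart in both. Adamts7 read 6.68, 6.62 and 7.26 in A/B-deleted cells, 6.59, 6.64 and 7.202 in full-length cells and 6.94, 6.89 and 7.24 in empty-vector cells. Adamts12 read 8.75, 8.89 and 7.29 in A/B-deleted cells, 8.81, 8.89 and 7.05 in full-length cells and 8.35, 8.54 and 7.13 in empty-vector cells. The 3 arrays numbered 3 had the highest Adamts7 values and the lowest Adamts12 values of all 9. On these probe sets the groups of both genes overlapped in each comparison over all 9 arrays. On the arrays numbered 1 and 2 alone Adamts7 was lower, and Adamts12 higher, on all 4 receptor arrays than on both empty-vector arrays. The share of all genes with such a split was not counted. The second Adamts12 probe set, 1446666_at, did not show this split and stayed between 5.46 and 5.97.

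For Adamts7 the difference was -0.17 (95% interval -0.67 to 0.32) for A/B-deleted minus empty vector and -0.21 (-0.71 to 0.28) for full-length minus empty vector. For Adamts12 the same differences were 0.31 (-1.04 to 1.65) and 0.25 (-1.10 to 1.59). These Adamts12 intervals take in the spread between replicate numbers, and they reach as far as the Adamts4 difference of 1.21. Within numbers 1, 2 and 3 the Adamts12 differences were 0.40, 0.35 and 0.16 for A/B-deleted minus empty vector. For full-length minus empty vector they were 0.46, 0.35 and -0.08. Without the arrays numbered 3 the 2 Adamts12 differences were 0.38 (SE 0.12, adjusted p = 0.41 in limma) and 0.41 (SE 0.12, adjusted p = 0.259 in limma).

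**Figure D2:**
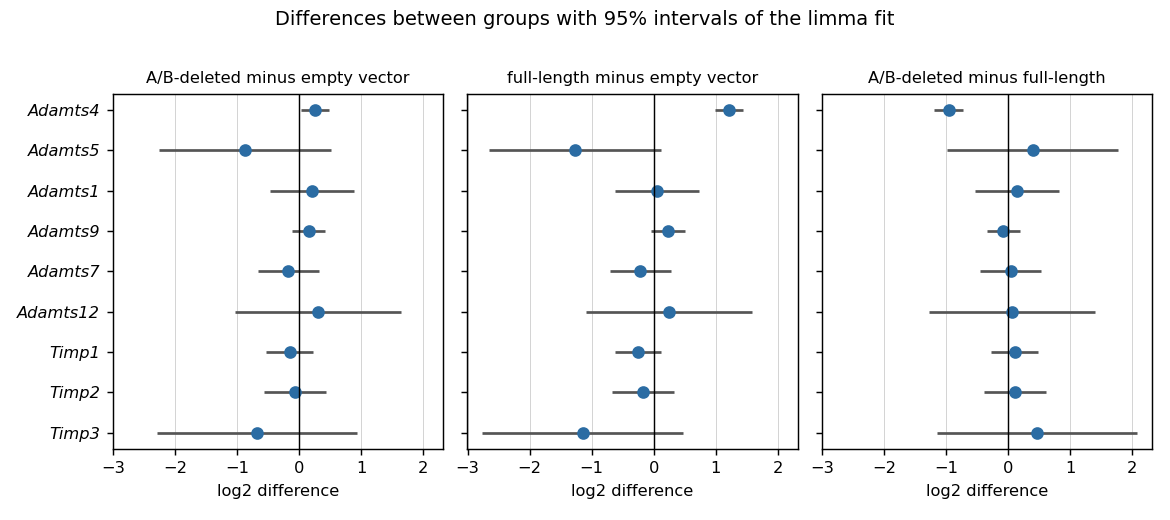
Log2 difference (horizontal axis) of each gene (rows) in the 3 comparisons, A/B-deleted minus empty vector, full-length minus empty vector and A/B-deleted minus full-length, with points for the estimate and lines for the 95% interval of the limma fit. Adamts4 stands at 1.21 for full-length minus empty vector and at -0.96 for A/B-deleted minus full-length cells, and the intervals of the other 8 genes include 0 in all 3 panels.

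Among the inhibitors, Timp1, which is induced by serum and cytokines in fibroblasts, read 12.91, 13.17 and 12.65 in A/B-deleted cells, 12.89, 12.95 and 12.57 in full-length cells and 13.08, 13.22 and 12.87 in empty-vector cells. The groups overlapped. Its difference was -0.15 (95% interval -0.53 to 0.23) for A/B-deleted minus empty vector and -0.25 (-0.63 to 0.13) for full-length minus empty vector. Neither passed the test (adjusted p = 1.00 in limma for both).

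Timp2, which both inhibits MMP2 and takes part in its activation by MMP14, read 12.70, 12.90 and 12.36 in A/B-deleted cells, 12.62, 12.85 and 12.17 in full-length cells and 12.83, 12.96 and 12.38 in empty-vector cells. Its differences were -0.07 (95% interval -0.57 to 0.43) for A/B-deleted minus empty vector and -0.18 (-0.67 to 0.32) for full-length minus empty vector. All 6 Timp2 probe sets had a negative value for full-length minus empty vector, from -0.13 to -0.30. On 1460287_at, the least variable of the 6, the full-length arrays lay below the empty-vector arrays, with a difference of -0.21 (SE 0.10, adjusted p = 0.879 in a limma fit over all single-gene probe sets).

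Timp3, the matrix-bound inhibitor that acts on ADAMTS4 and ADAMTS5, read 9.73, 11.32 and 9.19 in A/B-deleted cells, 9.42, 10.95 and 8.48 in full-length cells and 10.21, 11.80 and 10.28 in empty-vector cells. Array 2 was the highest of each group, and the groups overlapped. Differences were -0.68 (SE 0.72, adjusted p = 1.00) for A/B-deleted minus empty vector and -1.14 (SE 0.72, adjusted p = 1.00) for full-length minus empty vector, and neither passed limma's test. Leaving out 1 array moved them between -1.30 and -0.16 and between -1.81 and -0.57. The 4 Timp3 probe sets gave like values, from -0.53 to -0.73 and from -1.03 to -1.18.

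Within a replicate number Timp3 was lower with either receptor in every case, as were Adamts5 and, by smaller amounts, Timp1 (-0.057 to -0.297) and Timp2 (-0.016 to -0.21). A/B-deleted minus empty vector was -0.48, -0.48 and -1.08 for numbers 1, 2 and 3, and full-length minus empty vector was -0.78, -0.85 and -1.80. A/B-deleted minus full-length cells gave 0.31, 0.37 and 0.71. The comparisons against empty vector share their control arrays, and full-length and empty-vector arrays were not treated as pairs. How many of all genes keep 1 sign in this way was not counted, so nothing is read from the number of genes that do. Without the arrays numbered 3 the differences from empty vector were -0.48 and -0.82.

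**Figure D3:**
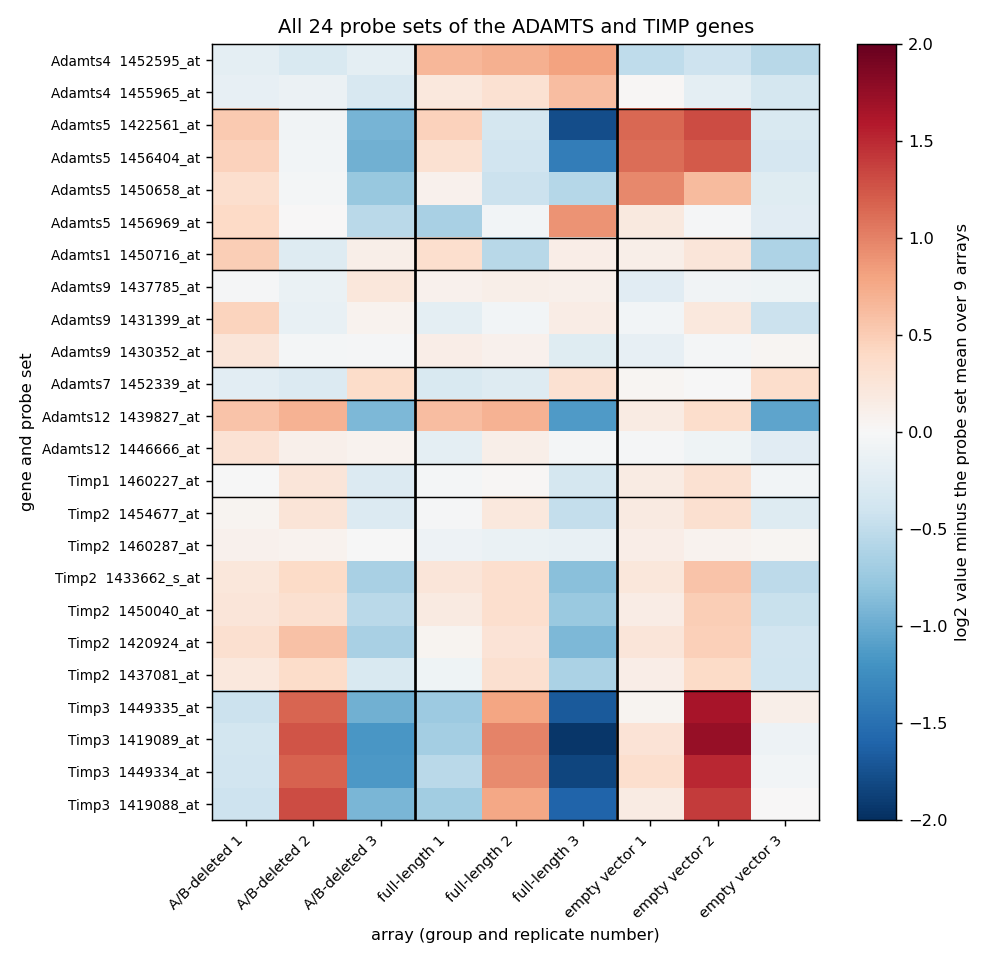
Heat map of all 24 probe sets (rows, grouped by gene) over the 9 arrays (columns, A/B-deleted, full-length and empty vector), coloured by log2 value minus the probe set's own mean over the 9 arrays. Both Adamts4 probe sets are highest on the full-length arrays. The 4 Timp3 probe sets share 1 pattern by replicate number, and 1456969_at departs from the other Adamts5 probe sets.

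In several of these genes the arrays numbered 3 differed from the other arrays by more than the group means differed. The 2 kinds of difference were not tested against each other. The arrays numbered 3 averaged 7.16 for Adamts12, against 8.70 on the other 6, a difference of -1.55, and the difference was -1.51 for Adamts5 and -1.26 for Timp3. It was -0.51 for Timp2, -0.34 for Timp1, 0.51 for Adamts7 and 0.03 for Adamts4, and the median over all genes was 0.02. For Timp3 the arrays numbered 2 were the highest of each group. With empty vector its array 3 (10.28) lay above array 1 (10.21). In 3 of the 9 genes (Adamts12, Timp1 and Timp2) every array numbered 3 lay below the other 6, as in 9.48% of all genes. In 1 of the 9, Adamts7, every array numbered 3 lay above, as in 10.3% of all genes.

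Probe sets of 1 gene did not share this shift equally. Of the 6 Timp2 probe sets 5 were lower on the arrays numbered 3, with differences of -0.507 to -0.998, while 1460287_at differed by -0.06. Whether these shifts go with the 18S signal or with RNA quality was not tested.

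**Figure D4:**
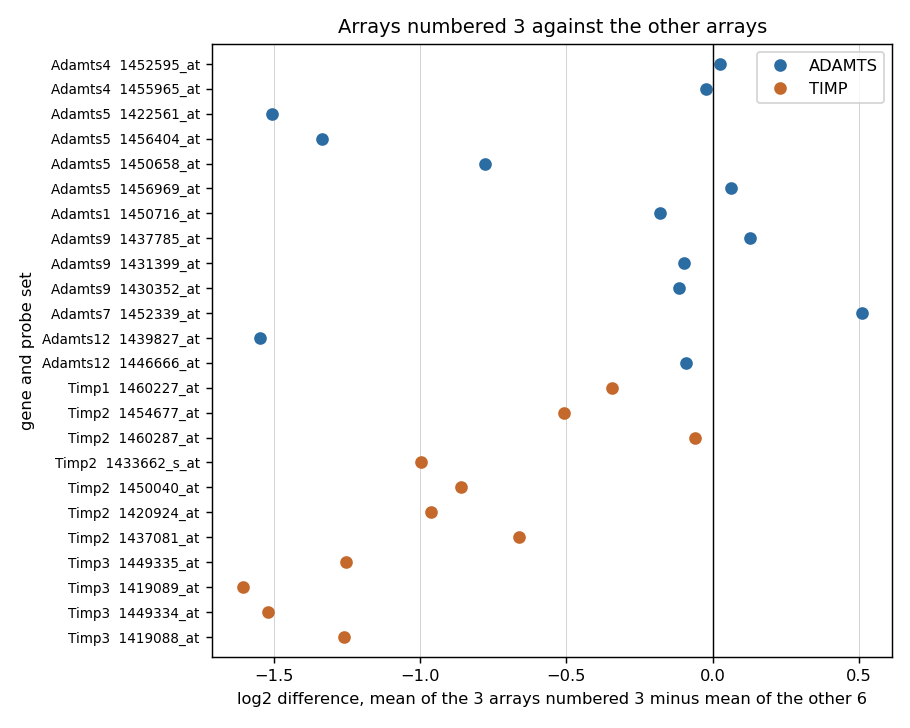
Log2 difference between the mean of the 3 arrays numbered 3 and the mean of the other 6 (horizontal axis) for each of the 24 probe sets (rows), ADAMTS and TIMP genes in separate colours. Both Adamts4 probe sets lie near 0 (0.03 and -0.02), whereas all 4 Timp3 probe sets lie between -1.61 and -1.26. For Timp3 the other 6 arrays include those numbered 2, the highest of each group.

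The genes whose values ran most like those of Adamts4 over the 9 arrays were Stom (Pearson r = 0.951), Ephx2 (0.943), Mrps22 (0.929), Ttc4 (0.925) and Polg (0.917). These are descriptions over 9 arrays that share the same 3 groups. Stom encodes the membrane protein stomatin, Ephx2 soluble epoxide hydrolase, Mrps22 a mitochondrial ribosome protein and Polg the mitochondrial DNA polymerase. Stom stood at 0.44 for A/B-deleted minus empty vector, 1.33 for full-length minus empty vector and -0.89 for A/B-deleted minus full-length cells. Ephx2 stood at 0.53, 1.23 and -0.70 in the same order, and Ttc4 spanned only 0.06, 0.17 and -0.11. Of the relatives, Adamts9 was nearest to Adamts4 (r = 0.637, rank 571), and Adamts5 had a negative r of -0.505.

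**Figure D5:**
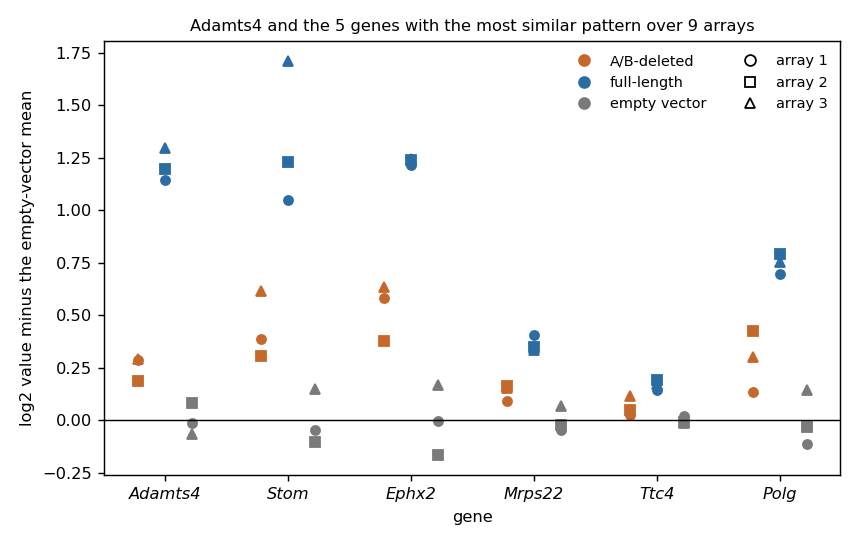
Log2 value minus the gene's own empty-vector mean (vertical axis) on each of the 9 arrays, for Adamts4 and the 5 genes with the highest Pearson correlation to it (horizontal axis), coloured by group with a symbol per replicate number. In each gene the full-length arrays lie highest, but the step is near 1.21 for Adamts4 and 0.17 for Ttc4.

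Of 80 other genes of matrix proteolysis in 7 lists, 71 were measured, and limma called 0 of them in each of the 3 comparisons. At an unadjusted p of 0.05, 3 passed for A/B-deleted against empty vector, 5 for full-length against empty vector and 1 for A/B-deleted against full-length cells, where the shares of all genes were 3.79%, 6.19% and 1.52%. Their median difference was -0.06, 0.00 and -0.03 in that order. With the replicate number as a block, 1 of the 71 was called for A/B-deleted against empty vector, where the numbers pair the arrays and 0.912% of all genes were called. It was Plat, tissue plasminogen activator, which was lower by this fit (-0.67, adjusted p = 0.0471 in limma with the block).

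Among 10 other ADAMTS and TIMP genes the full-length difference from empty vector ran from -0.26 to 0.09. Adamts15 stood at -0.26, Adamts6 at -0.18 and Adamts8, an aggrecan-cleaving family member, at 0.09. Among 7 ADAMTS-like genes, which resemble ADAMTS but lack the protease domain, it ran from -0.18 (Adamtsl4) to 0.12 (Adamtsl1), with Adamtsl2 at -0.06. In A/B-deleted cells all 7 had a negative difference from empty vector, from -0.42 to -0.08, as had 57.8% of all genes, and limma called none of the 7.

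Of 14 substrate genes, Vcan, which encodes versican, averaged 10.46 ± 0.26 in A/B-deleted cells, 10.33 ± 0.20 in full-length cells and 10.85 ± 0.29 in empty-vector cells (SD, n = 3 each). Its differences from empty vector were -0.39 with the A/B-deleted receptor (adjusted p = 1.00 in limma) and -0.51 with the full-length receptor (adjusted p = 0.557). The proteoglycan genes Dcn and Fmod stood at -0.32 and 0.20 for full-length minus empty vector. Aggrecan, the namesake substrate of Adamts4, averaged 6.45, 6.73 and 6.69 in A/B-deleted, full-length and empty-vector cells (gene Acan), within or below the range of the array medians.

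Among 7 genes of activation and clearance, full-length minus empty vector was -0.73 (SE 0.67) for Sdc4, the gene of a heparan sulfate proteoglycan. It was -0.16 (SE 0.16) for Furin, a convertase that removes prodomains, and 0.15 (SE 0.22) for Lrp1, an endocytic receptor that clears ADAMTS4, ADAMTS5 and TIMP3. Among 18 matrix metalloproteinase genes and Reck together the range was -0.27 to 0.39. Mmp23 stood at 0.39 (SE 0.15), Mmp13 at 0.33 (SE 0.21) and Reck, a membrane-anchored inhibitor, at 0.31 (SE 0.37). Mmp13 had the lowest mean of this list, 3.87, below every array median.

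Among 9 ADAM genes, which encode membrane-bound relatives, Adam9 averaged 10.39 ± 0.06 in A/B-deleted cells, 10.23 ± 0.02 in full-length cells and 10.67 ± 0.07 in empty-vector cells (SD, n = 3 each). Its groups did not overlap in any of the 3 comparisons. Of the 71 list genes 5 had groups that did not overlap in each comparison. The shares of all genes were 7.89% for A/B-deleted against empty vector, 9.38% for full-length against empty vector and 5.17% for A/B-deleted against full-length cells. Full-length minus empty vector was -0.44 (SE 0.10, adjusted p = 0.11 in limma) for Adam9, -0.47 (SE 0.36) for Adam12 and -0.30 (SE 0.11) for Adam33. In the plasminogen and serpin list, full-length minus empty vector was -1.19 (SE 0.58, adjusted p = 0.896 in limma) for Plat, 0.46 (SE 0.19) for Serpinf1 and 0.36 (SE 0.37) for Plaur.

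Promoter windows from 250 bases before to 50 after the start (RefSeq, GRCm38.p6) were held for 7 of the 10 listed genes, which did not include Adamts4, Adamts5 and Adamts7. On both strands 0 of these 7 held the PPARγ and RXR element AGGTCANAGGTCA, its half-site AGGTCA or the AP-1 site TGANTCA, which 0.0396%, 16.3% and 7.81% of all 32851 windows held. This says only that these letters are not in those windows.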

How the data were processed

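The deposited table gave 1 log2 value per probe set and array. The submitters' processing notes name RMA, affy and R 2.5.0. The log base was not stated and was read from the values: on every array at least 99.858% of the antilogs to base 2 lay on a grid of 0.01 (tolerance 0.01 of a grid step). Of 45101 probe sets, 34945 had 1 symbol in the platform annotation, and controls and those with several or no symbols were left out. Each gene was represented by its probe set with the highest mean. The scale was used as deposited.

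Groups came from the sample titles. Differences were fitted with limma 3.58.1 (R 4.3.3) on all 9 arrays together, as 3 group means without a block, two-sided, adjusted by Benjamini-Hochberg over 18193 genes. Probe sets were also fitted each on its own. The fit was tested on simulated data. Nothing says whether arrays came from separate cultures beyond a mention of individual experiments, so p-values measure the spread between these arrays. The main fit left replicate numbers out, so its errors include the spread between them. Outside that fit, replicate numbers were treated as pairs where all 3 correlations of deviations from the group means were over 0.1. These were 0.520 to 0.708 between A/B-deleted and empty vector, 0.297 to 0.531 between the receptors and -0.12 to 0.631 between full-length and empty vector. The members, gene lists and alternatives were chosen with earlier results of these data known. Named were all members, Pparg, called list genes, the 3 genes of each list with the largest full-length difference from empty vector and the 5 genes most like Adamts4. Acan, Adipoq, Col1a1, Epcam, Lep, Retn, Sox9 and Vim were added after their values were seen. Python 3.11.15, pandas 2.3.3 and matplotlib 3.10.9 prepared tables and figures.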

Additional observations from a re-analysis of the deposited data

How the results depend on the processing

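Alternatives were the replicate number as a block, averaging all probe sets of a gene, each probe set as its own feature, array median subtraction, quantile normalization, a filter on low means, only the 6 compared arrays, a trend in the prior variance, each array left out and the arrays numbered 3 left out. The count of called genes among the 9 stayed at 1 for full-length against empty vector, and at 0 in both other comparisons, under all but 2 of them. With the replicate block 3 were called for full-length against empty vector, Adamts4, Adamts5 (-1.27, adjusted p = 0.0308) and Timp3 (-1.14, adjusted p = 0.032), where the arrays were not treated as pairs and 4 of the 6 lay closest to their own number. The block called 3.63% of all genes there and 5 of the 71 list genes, Plat, Adam12, Adam9 and Vcan lower and Serpinf1 higher (adjusted p from 0.00309 for Plat to 0.0311 for Vcan), and it changed no other call among the 9. With the filter on low means 1 was called for A/B-deleted against full-length cells, Adamts4, and that filter tests fewer genes. The size of the Adamts4 difference ran from 0.12 to 0.29, from 0.88 to 1.25 and from -0.99 to -0.77 in the 3 comparisons (A/B-deleted against empty vector, full-length against empty vector, A/B-deleted against full-length). All genes called for A/B-deleted against empty vector numbered 31, against 166 with the block, 55 without the arrays numbered 3 and 20 with only the 6 compared arrays. For full-length against empty vector they numbered 119, against 661, 156 and 67, and 184 of single-gene probe sets. Leaving out 1 array gave 17 to 34 and 57 to 114, and 0 or 1 for A/B-deleted against full-length cells.

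Signs of uncalled differences turned in several genes, and the cause was not tested. Without the arrays numbered 3 Adamts1 was at -0.062 and -0.29 against empty vector (A/B-deleted and full-length) and Adamts12 at -0.032 between the receptors. With the mean of its probe sets Adamts9 was at 0.048 between the receptors. Leaving out each array, A/B-deleted minus empty vector ran from -0.061 to 0.39 for Adamts1, -0.13 to 0.82 for Adamts12 and -0.24 to 0.081 for Timp2. Full-length minus empty vector ran from -0.21 to 0.32 for Adamts1, -0.19 to 0.85 for Adamts12 and -0.35 to 0.013 for Timp2. A/B-deleted minus full-length ran from -0.12 to 0.34 for Adamts1, -0.21 to 0.90 for Adamts5, -0.16 to 0.24 for Adamts7, -0.18 to 0.0027 for Adamts9 and -0.54 to 0.57 for Adamts12. For the inhibitors it ran from -0.023 to 0.24 for Timp1, -0.079 to 0.26 for Timp2 and -0.15 to 1.13 for Timp3.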
